A study of Homo sapiens with 6 samples.

Results

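The interferon-stimulated genes BST2, ISG15, USP18, HERC5, IFI6, IFI27, IFI44, IFI44L, RSAD2 and XAF1 are described here in bladder tumour cells with and without knockdown of GANAB. They were picked by symbol, with earlier results of these data known. All 10 were found among the 21503 genes with counts and the 60233 with TPM (a transcript level scaled for gene length and library total). The cells were UMUC3, an established human bladder carcinoma line, transplanted orthotopically into the bladder of C57 nude mice and collected after 14 days. One group was control UMUC3 and the other was UMUC3 with knockdown of GANAB, which encodes the catalytic subunit of glucosidase II, with 3 bulk RNA-seq libraries in each. The host mice of both groups were nude, a strain without a functional thymus that keeps its macrophages, natural killer cells and other innate cells. The labels name neither the reagent used for the knockdown nor the number of clones or animals behind each library, so p-values measure the spread between these libraries, which may be technical.

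Interferon-stimulated genes are switched on when a cell senses interferon or viral nucleic acid. Type I and type III interferons act through JAK kinases on a complex of transcription factors that binds the interferon-stimulated response element (ISRE) in the promoters of its targets. Some of the genes described here act directly on viruses, some build or remove the ubiquitin-like tag ISG15, and some limit the response or promote cell death.

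The promoters were searched for the sequence this complex reads. These genes were chosen as interferon-stimulated, so an excess of matches was built into the choice and is no independent result. The ISRE core was searched as GAAA, any 2 bases and GAAA again, or TTTC, any 2 bases and TTTC for the other strand, in windows from 250 bases before to 50 bases after the start of each gene (RefSeq, GRCh38.p14). Windows were found for 9 of the 10 genes (not USP18), 13 windows in all, and 10 of the 13 held a match, against 3.57% of all 35116 promoter windows. By gene, 8 of 9 held a match, against 1195 of all 27305 genes with a window. The windows without these letters were both of XAF1 and 1 of the 2 of RSAD2. The sites are printed as 30 bases, 5′ to 3′ on the strand of the gene, with matches in capitals.
ISG15: tgcctcggGAAAGGGAAACCGAAActgaag
BST2: ctttctggGAAACTGAAACTGAAAacctaa
HERC5: cattacagTTTCCTTTTCCTTTTCgattcc
IFI6: gggagagagggGAAAATGAAActctgcaga
IFI27: gcagTTTCGGTTTCctgGAAAATGAAAcct
IFI44: ggcacactgagTTTCAGTTTCctttctctg
IFI44L: ttcctagtgagGAAAAAGAAAgttagtggc
RSAD2: cctgtttcaacTTTCAGTTTCacatgtgga

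In ISG15, BST2 and HERC5 a pair of matches overlaps, which lengthens the run of repeats. The sites lie at chr1:1013376-1013405 (ISG15, plus strand, 121 to 92 bases before the start), chr19:17405739-17405768 (BST2, minus strand, 138 to 109 bases before it) and chr4:88456986-88457015 (HERC5, plus strand, 133 to 104 bases before it). The IFI6 site is at chr1:27672330-27672359 (minus strand, 167 to 138 bases before the start), that of IFI27 at chr14:94110624-94110653 (plus strand, 112 to 83 bases before the first of its 2 starts) and that of IFI44 at chr1:78649760-78649789 (plus strand, 71 to 42 bases before the second of its 2 starts). IFI44L has its site at chr1:78620273-78620302 (plus strand, 175 to 146 bases before the start) and RSAD2 at chr2:6877621-6877650 (plus strand, 156 to 127 bases before the start it belongs to). IFI6 and HERC5 carry 3 matches each, shown here over 125 bases of promoter that overlap no annotated exon.
IFI6: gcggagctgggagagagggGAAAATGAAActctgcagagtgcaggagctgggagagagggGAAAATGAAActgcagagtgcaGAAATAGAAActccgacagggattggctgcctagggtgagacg
HERC5: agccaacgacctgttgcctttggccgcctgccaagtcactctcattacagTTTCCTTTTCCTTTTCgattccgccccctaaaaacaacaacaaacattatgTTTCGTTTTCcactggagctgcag

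A match describes letters and not binding. The genes with matches include ISG15 and BST2, which rose in the knockdown, as well as IFI6 and HERC5, which did not pass the test, and XAF1, without a match, rose. The GAS motif (TTC, any 3 bases and GAA) was found in BST2 and IFI27 and in 7.66% of all windows, where in both genes 1 match overlaps an ISRE match. The TATA box letters TATAAA or TTTATA were in the windows of IFI27, IFI44 and RSAD2 and in 11.5% of all windows. Their positions differed. The RSAD2 match lay at -30 to -25 from its second start and that of IFI27 at -210 to -205 from its first. That of IFI44 lay at -106 to -101 from its first start and -148 to -143 from its second. In a list of 35 other interferon effectors, windows were found for 28 genes and 19 of these held an ISRE match.

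In the knockdown libraries 5 of the 10 genes rose, BST2, XAF1, IFI44L, ISG15 and IFI44. The other 5, USP18, HERC5, IFI6, IFI27 and RSAD2, did not pass the test, and none fell. All 10 passed the filter on low counts and were among the 19430 genes tested. Of all tested genes 8.31% passed, 4.59% as higher and 3.72% as lower in the knockdown (edgeR quasi-likelihood test, Benjamini-Hochberg adjusted p under 0.05). At an unadjusted p under 0.05 also 5 were higher and 0 lower, and DESeq2 called the same 5 higher and 0 lower. The control and knockdown values did not overlap for 5 of the 10, all higher in the knockdown, while 21.9% of all tested genes were higher without overlap. The median log2 fold change was 1.00 over the 10 genes and 0.03 over all tested genes. In bulk RNA a change in the number of cells that express a gene cannot be told apart from a change in RNA per cell.

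**Figure D1:**
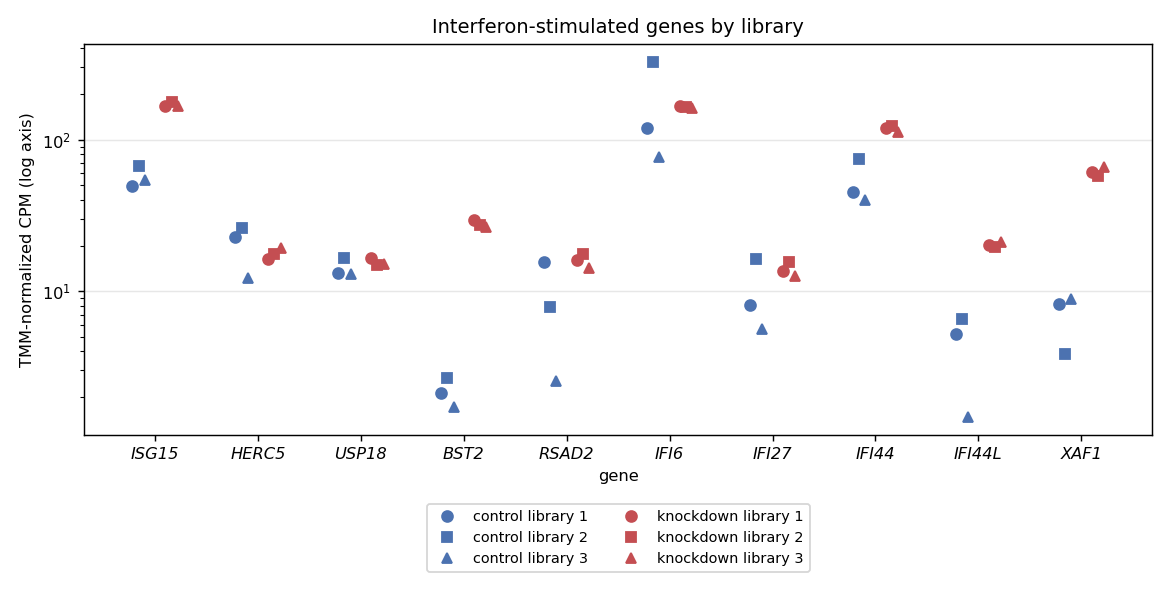
TMM-normalized CPM (log axis) of the 10 genes, with blue points for the 3 control libraries and red points for the 3 knockdown libraries, and marker shape for the library number. The red points lie above all blue points for ISG15, BST2, IFI44, IFI44L and XAF1, and within or across the blue range for the other 5.

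Values per library are CPM, that is counts per unit of TMM-adjusted library total. Library totals ran from 11737837 counts (control library 3) to 40039584 (knockdown library 3). GANAB stood at 661 to 825 CPM in control and 231 to 238 CPM in knockdown libraries (log2 fold change -1.63, edgeR adjusted p = 0.00239), as labelled. Control library 1 stood apart, with 29.2% of its counts from mitochondrial ribosomal RNA against 0.928 to 2.43% in the other libraries. On the deposited TPM scale this share was 30.1%, which lowered the TPM of all other genes in that library and its summed TPM values below. Of the urothelial and epithelial marker list 14 of 16 genes had counts and 3 of 13 tested rose (UPK1A, FOXA1 and VIM), VIM and KRT18 were the most abundant, and KRT20 and UPK3A were listed at 0 TPM in every library. VIM, a gene of mesenchymal cells, gave most of the summed TPM of 1327 to 2893 in control and 4629 to 4690 in knockdown libraries, and without it the sums overlapped (180 to 476 and 405 to 431 TPM). The knockdown libraries lay close together: the coefficient of variation of the 10 genes was 1.56 to 11.2% in knockdown (median 5.72%) and 13.7 to 76.9% in control libraries (median 37.4%). Over all tested genes its median was 8.89% and 35.2%.

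ISG15 encodes a ubiquitin-like protein that is attached to other proteins and is also secreted. The gene lies on chromosome 1 (ENSG00000187608, 1001138 to 1014540, plus strand, GRCh38). Control libraries 1, 2 and 3 had 49.1, 67.2 and 54.3 CPM, and knockdown libraries 1, 2 and 3 had 167, 176 and 166 CPM. Every knockdown library was above every control library. ISG15 rose 2.98-fold (log2 fold change 1.57, SE 0.154, edgeR adjusted p = 0.00356), and it passed in all 6 fits that left out a library, with 2.73-fold to 3.29-fold. AL645608.3 and AL645608.1 overlap it on the opposite strand, and since no source names the strand setting of the counting, their reads could enter its value.

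HERC5 encodes the main ligase that attaches ISG15 to newly made proteins (ENSG00000138646, chromosome 4, 88457117 to 88506163, plus strand). Its levels were 22.7, 26.0 and 12.3 CPM in the controls and 16.3, 17.5 and 19.2 CPM in the knockdown. All 3 knockdown values lay inside the control range. The log2 fold change was -0.21, with a 95% interval of -0.85 to 0.44 and an edgeR adjusted p of 0.700, and it was 0.10 to 0.12 on the TPM scale. HERC6, its neighbour and relative on chromosome 4, rose 2.33-fold: the controls had 10.5, 17.3 and 13.7 CPM and the knockdown 32.4, 32.4 and 31.9 CPM (edgeR adjusted p = 0.0171). HERC6 did not pass without knockdown library 1, 2 or 3 (edgeR adjusted p = 0.109 to 0.116).

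USP18 encodes the protease that removes ISG15 from proteins and also blocks signalling at the interferon receptor (ENSG00000184979, chromosome 22, 18149899 to 18177397, plus strand). It stood at 13.2, 16.5 and 13.0 CPM in the controls and at 16.6, 14.9 and 15.1 CPM in the knockdown, so that the groups overlapped. Its log2 fold change was 0.13, with a 95% interval of -0.29 to 0.55 (edgeR adjusted p = 0.715). In fold terms that interval ran from 0.816-fold to 1.46-fold, so a rise as large as that of ISG15 lay outside it. USP18 has a near-identical relative on chromosome 22, USP41, listed at 5.19 TPM in knockdown library 1 and at 0 in the other 5 libraries, so the split of reads between them is uncertain.

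The remaining genes of ISG15 attachment and removal moved unequally. Of the 9 tested in this list, which has 10 genes, ISG15, UBA7 and HERC6 rose and none fell, with a median log2 fold change of 0.13. UBA7, the activating enzyme that begins ISG15 attachment, was at 14.9, 14.1 and 24.4 CPM in the controls and at 50.1, 49.0 and 53.8 CPM in the knockdown. UBA7 rose 2.87-fold (edgeR adjusted p = 0.0130), but not beyond the threshold without knockdown library 1, 2 or 3 (adjusted p = 0.0814 to 0.0976). UBE2L6, the conjugating enzyme, had 75.0, 130 and 75.8 CPM in the controls and 109, 102 and 105 CPM in the knockdown. Control library 2 was its highest value, and UBE2L6 passed only in the fits without that library (log2 fold change 0.49, edgeR adjusted p = 0.00310) and with voom quality weights (0.42, adjusted p = 0.0421), against 0.17 with all libraries. Of the ligases TRIM25 and ARIH1 and the protease USP16, which acts on ISG15 and ubiquitin, none passed with all libraries (log2 fold changes -0.06, 0.10 and -0.25). USP16 passed without control library 2 (-0.40, edgeR adjusted p = 0.0155).

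**Figure D2:**
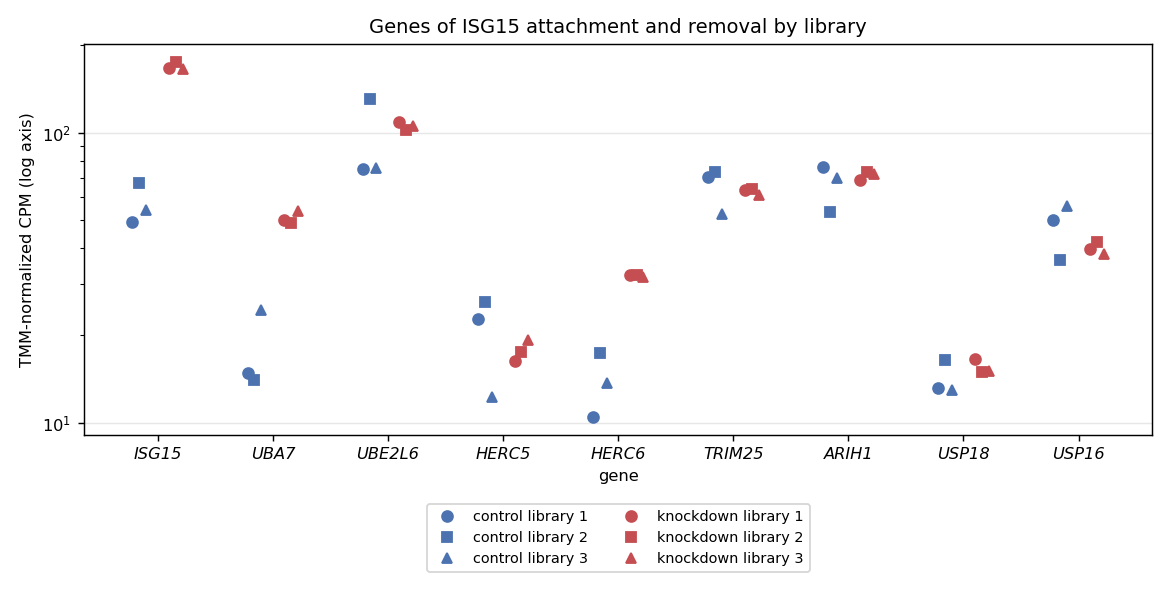
TMM-normalized CPM (log axis) of 9 genes of ISG15 attachment and removal in the 3 control (blue) and 3 knockdown (red) libraries. ISG15, UBA7 and HERC6 have every red point above every blue one, and UBE2L6, HERC5, TRIM25, ARIH1, USP18 and USP16 do not.

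BST2 encodes tetherin, a membrane protein that holds budding virus particles at the cell surface (ENSG00000130303, chromosome 19, 17402939 to 17405648, minus strand). No other annotated gene overlaps it. It stood at 2.13, 2.68 and 1.73 CPM in the controls and at 29.7, 27.2 and 26.6 CPM in the knockdown. The lowest knockdown value was far above the highest control value. BST2 rose 12.6-fold (log2 fold change 3.66, SE 0.225, edgeR adjusted p = 0.000981), with a 95% interval of 8.79-fold to 18.2-fold, and passed under each of the 18 alternatives run. BISPR is a long noncoding RNA that starts from the other strand inside the promoter window searched for BST2. BISPR also rose, from 1.51, 0.999 and 1.15 CPM to 4.12, 3.92 and 4.97 CPM (3.53-fold, edgeR adjusted p = 0.0261). BISPR overlaps MVB12A on the same strand, which makes its value uncertain, and it did not pass without knockdown library 1, 2 or 3 (adjusted p = 0.135 to 0.173).

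RSAD2 encodes viperin, a radical SAM enzyme that makes a chain-terminating nucleotide from CTP (ENSG00000134321, chromosome 2, 6865806 to 6898239, plus strand). In CPM it was 15.6, 7.83 and 2.55 in the controls and 16.0, 17.5 and 14.3 in the knockdown. The knockdown values overlapped control library 1 alone. Its log2 fold change of 0.86 had a 95% interval of -0.39 to 2.11 and did not pass (edgeR adjusted p = 0.367). CMPK2, the nucleotide kinase gene next to it and overlapping it on the opposite strand, rose from 3.02, 3.57 and 2.06 CPM to 9.28, 10.4 and 9.21 CPM (3.32-fold, edgeR adjusted p = 0.0160; adjusted p = 0.111 to 0.114 without knockdown library 1, 2 or 3).

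On the deposited TPM scale RSAD2 looked different. It was listed at 4.01, 4.01 and 5.70 TPM in the controls and at 9.16, 10.7 and 7.66 TPM in the knockdown, with no overlap. Control library 3, the lowest in CPM, was the highest of the controls on this scale. With mitochondrial genes left out of the totals the controls had 6.23, 4.30 and 5.89 TPM, so that control library 1 was the highest, as in CPM, and control library 3 stayed above control library 2. The number of counts behind 1 TPM of this gene differed between the libraries. Relative to the median gene of each library, RSAD2 had 1.61, 1.20 and 0.297 counts per TPM in the controls and 1.12, 1.07 and 1.19 in the knockdown. IFI44L had 1.44, 0.872 and 0.282 in the controls and 1.68, 1.09 and 1.14 in the knockdown. For IFI44L the highest of the 6 values was 5.95 times the lowest and for RSAD2 it was 5.43 times, against a median of 1.24 over 16767 genes, and only 1.34% and 1.59% of those genes had a larger ratio. The other 8 genes had ratios of 1.05 to 1.41. No limma-trend fit to TPM called RSAD2. By TPM 6 of the 10 genes were higher without overlap, against 24.2% of all genes whose mean TPM reached 1.

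IFI6 and IFI27 belong to a family of small hydrophobic proteins of mitochondria and the endoplasmic reticulum, and IFI6 is known for delaying apoptosis. IFI6 (ENSG00000126709, chromosome 1, 27666061 to 27672218, minus strand) was at 119, 326 and 76.7 CPM in the controls and at 166, 165 and 161 CPM in the knockdown. Control library 2 was above, and control libraries 1 and 3 below, all knockdown libraries. The log2 fold change was -0.09 (95% interval -1.19 to 1.02, edgeR adjusted p = 0.931). Without control library 2 it was 0.74 and passed (edgeR adjusted p = 0.0160), in a fit that also called far more of all tested genes.

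IFI27 (ENSG00000165949, chromosome 14, 94104836 to 94116698, plus strand) had 8.06, 16.2 and 5.60 CPM in the controls and 13.7, 15.7 and 12.6 CPM in the knockdown. Again control library 2 was the highest and control libraries 1 and 3 were below every knockdown library. Its log2 fold change was 0.49 (95% interval -0.39 to 1.36, edgeR adjusted p = 0.470), and without control library 2 it was 1.02 and passed (adjusted p = 0.0125). The relative IFI27L2 on the same chromosome had the same order, with 19.0, 49.4 and 13.0 CPM in the controls and 29.5, 28.0 and 28.6 CPM in the knockdown. It passed only without control library 2 (log2 fold change 0.83, edgeR adjusted p = 0.00993, against 0.08 with all libraries). IFI27L1, the third of this cluster, was at 19.1, 23.8 and 14.5 CPM in the controls and 12.1, 13.2 and 16.6 CPM in the knockdown (log2 fold change -0.46, edgeR adjusted p = 0.273).

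In the myeloid marker list the same library was high, through CD68 for the most part. Summed TPM of these 12 genes was 229 in control library 2, 61.6 and 74.2 in control libraries 1 and 3, and 58.5 to 62.4 in the knockdown, and CD68 alone gave 207, 51.6 and 59.0 TPM in control libraries 2, 1 and 3. Without CD68 the other 11 summed to 22.4 TPM there and to 9.95 to 16.1 TPM in the other libraries. Of the endothelial list TIE1 alone was high there, at 45.5 TPM, and the other 7 genes summed to 0.399 TPM, the lowest of the 6 libraries. PTPRC, a marker of white blood cells, was at 0 TPM in control library 2 and at most 0.383 TPM in any library. In CPM, CD68 was 96.0, 255 and 66.8 in control libraries 1, 2 and 3 and 51.6 to 52.3 in the knockdown. All knockdown libraries were thus below all controls, but CD68 did not pass (log2 fold change -1.43, edgeR adjusted p = 0.0958). The part of other cells in the IFI6, IFI27 and UBE2L6 values was not tested.

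IFI44 and IFI44L are neighbouring and related genes of chromosome 1 that encode cytoplasmic proteins. IFI44 (ENSG00000137965, 78649796 to 78664078, plus strand) was at 45.2, 74.1 and 40.1 CPM in the controls and at 118, 123 and 111 CPM in the knockdown. The groups did not overlap. IFI44 rose 2.21-fold (edgeR adjusted p = 0.0293). It passed when control library 2 was left out and failed in each of the other 5 fits without 1 library (edgeR adjusted p = 0.0631 to 0.148).

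IFI44L (ENSG00000137959, 78619922 to 78646145, plus strand) had 5.22, 6.52 and 1.48 CPM in the controls and 20.2, 19.6 and 20.9 CPM in the knockdown. In CPM control library 3 was the lowest, and all controls were below all knockdown libraries. On the TPM scale without mitochondrial genes control libraries 1, 2 and 3 had 2.33, 4.93 and 3.60 TPM. There control library 1 was the lowest, and all controls were again below all knockdown libraries. The ratio of the group means on the deposited TPM scale was 3.28. IFI44L rose 4.52-fold with a wide 95% interval of 2.16-fold to 9.46-fold (edgeR adjusted p = 0.0308). It did not pass without control library 1 (adjusted p = 0.0724) or without knockdown library 1, 2 or 3 (0.135 to 0.148).

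XAF1 encodes a zinc finger protein that binds the caspase inhibitor XIAP and promotes apoptosis (ENSG00000132530, chromosome 17, 6755447 to 6775647, plus strand). It stood at 8.28, 3.84 and 8.89 CPM in the controls and at 61.5, 57.6 and 65.9 CPM in the knockdown. No control library came near the knockdown values. XAF1 rose 8.84-fold (log2 fold change 3.14, SE 0.311, edgeR adjusted p = 0.00356) and passed under each of the 18 alternatives. Of 8 genes of cell death linked to XAF1 (inhibitor of apoptosis proteins, caspases, DIABLO and HTRA2) none passed in edgeR, and BIRC2 and BIRC3 had log2 fold changes of 0.26 and 0.50. PRAL, a transcript of the opposite strand, overlaps XAF1.

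**Figure D3:**
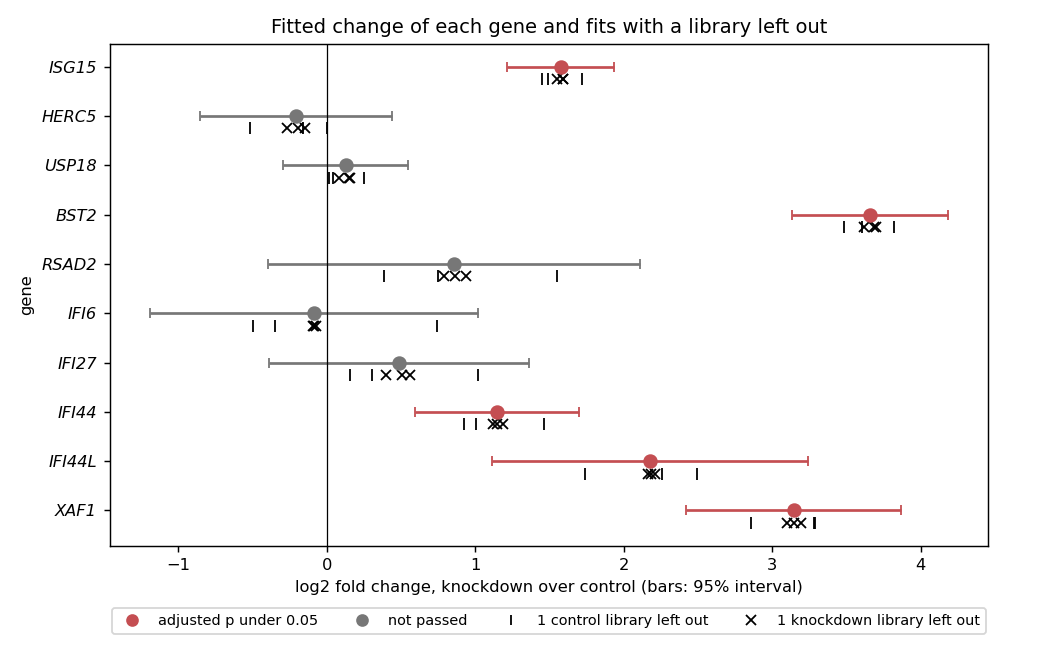
Fitted log2 fold change of the 10 genes, knockdown over control, with 95% intervals, red where the edgeR adjusted p was under 0.05 and grey where it was not. Small marks under each interval give the value with 1 control library (vertical tick) or 1 knockdown library (cross) left out, and IFI6, IFI27 and RSAD2 have the widest spread of ticks.

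Levels per length were compared between genes on the TPM scale with mitochondrial genes left out of each total, since control library 1 was rich in them. IFI6 had the highest control mean (356 ± 284 TPM, SD, n = 3), followed by ISG15 (158 ± 32.3), IFI44 (59.7 ± 19.4) and IFI27 (34.1 ± 24.6). IFI6 and ISG15 differed by less than the SD of IFI6, and the ranges of IFI44 and IFI27 over the controls overlapped. USP18 (11.1 ± 1.72 TPM), HERC5 (9.06 ± 3.67), RSAD2 (5.47 ± 1.03), XAF1 (5.16 ± 2.16), IFI44L (3.62 ± 1.30) and BST2 (3.44 ± 0.817) made up the low end, where neighbours again lay within their spread. In the knockdown the order was ISG15 (505 ± 26.1 TPM), IFI6 (357 ± 8.36), IFI44 (159 ± 8.61), IFI27 (51.1 ± 6.22), BST2 (47.9 ± 2.53) and XAF1 (47.3 ± 4.43), with IFI27, BST2 and XAF1 within their spread of each other. USP18 (13.2 ± 0.636 TPM), IFI44L (11.7 ± 2.58), RSAD2 (10.2 ± 1.63) and HERC5 (8.61 ± 0.782) followed. BST2 thus stood last of the 10 in control and level with IFI27 and XAF1 in knockdown libraries.

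**Figure D4:**
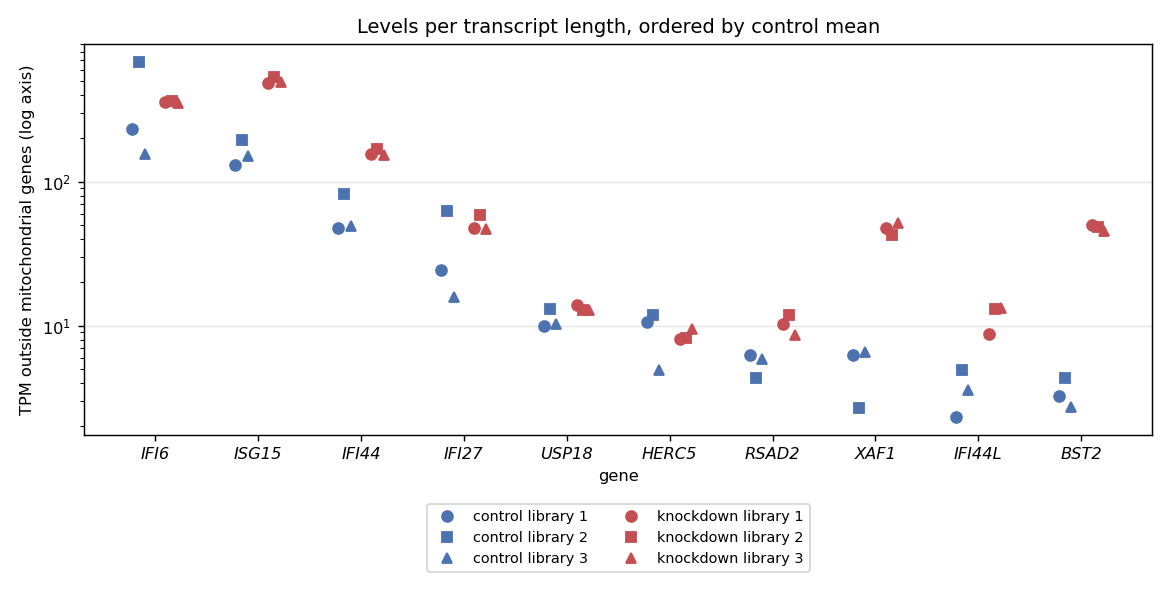
TPM with mitochondrial genes left out of the total (log axis) for the 10 genes, in order of their control mean, in the 3 control (blue) and 3 knockdown (red) libraries. BST2 and XAF1 lie at the low end in blue and at the level of IFI27 in red.

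Upstream of these genes, interferons themselves were hardly seen. Of 21 interferon genes 16, among them every one of the 13 type I alpha genes listed, were at 0 TPM in all 6 libraries. IFNB1 had at most 0.394 TPM, in control library 2. IFNL1, a type III interferon, was the 1 gene tested, with 3, 0 and 0 counts in the controls and 14, 49 and 51 in the knockdown, and it did not pass with all libraries (edgeR adjusted p = 0.0666; 0.0498 without control library 2), whereas DESeq2 called it higher (adjusted p = 0.0123). The list summed to 0 to 0.394 TPM in control and 1.55 to 3.21 TPM in knockdown libraries.

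Of 15 genes of interferon receptors, JAK kinases, STATs and IRFs, IRF7 and IRF3 rose and none fell, with a median log2 fold change of 0.19. IRF7, the regulator that amplifies interferon production, was 2.10-fold higher and went from 6.50 ± 0.722 to 13.7 ± 0.351 CPM (edgeR adjusted p = 0.0219), and IRF3 rose 1.77-fold (adjusted p = 0.0292). Neither passed without knockdown library 1, 2 or 3, nor IRF3 without control library 1 or 3 (adjusted p = 0.0660 to 0.165 for these). STAT2 and IRF9, named after their values were seen because they are part of the complex that reads the ISRE, had log2 fold changes of 1.01 and 0.24 (edgeR adjusted p = 0.0601 and 0.444). Both passed without control library 2 (0.0297 and 0.0154), and STAT2 also without control library 3 (0.0411) and in DESeq2 (0.00785).

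Among 11 tested genes of nucleic acid sensing 3 rose and none fell. IFIH1, the gene of the double-stranded RNA sensor MDA5, rose 2.33-fold, DHX58, which encodes its regulator LGP2, 3.84-fold, and the endosomal sensor gene TLR3 2.39-fold (edgeR adjusted p = 0.0217, 0.0236 and 0.0304). None of them passed without knockdown library 1, 2 or 3, nor DHX58 or TLR3 without control library 1 (adjusted p = 0.0539 to 0.172). Of 12 genes of negative feedback, USP18 included, SOCS3, which inhibits JAK kinases, was the 1 that rose, from 25.9 ± 10.4 to 140 ± 2.80 CPM (5.39-fold, edgeR adjusted p = 0.00698; 0.0547 and 0.0538 without knockdown library 1 and 3). The phosphatase genes PTPN11 and PTPN2 had log2 fold changes of -0.34 and -0.48 and passed only without control library 2 or with other tools.

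Of the 35 other effectors 13 rose and none fell, with a median log2 fold change of 0.81. IFIT2, which binds viral RNA, rose 6.81-fold, SAMD9L, an inhibitor of translation, 4.11-fold and the ubiquitin ligase gene TRIM22 3.82-fold (edgeR adjusted p = 0.00239, 0.00356 and 0.00423). IFIT2 and SAMD9L passed in each fit without 1 library and TRIM22 did not without knockdown library 1, 2 or 3 (0.0534 to 0.0587). Summed TPM of the 35 genes was 2519 in control library 2, 1045 and 1727 in control libraries 1 and 3, and 2221 to 2230 in the knockdown. IFITM3, named after its values were seen because it was the most abundant, did not pass (edgeR adjusted p = 0.944). It gave 1425 TPM of the sum in control library 2, 475 and 879 in control libraries 1 and 3, and 1007 to 1048 in the knockdown.

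Genes used as markers of other cell types moved with the groups in part. The genes counted are human and the host was mouse. Host cells could enter these values only through mouse reads that match human transcripts. Of 8 smooth muscle genes (TAGLN and ACTA2 the most abundant) 4 rose, and the list summed to 214 to 435 TPM in control and 935 to 997 TPM in knockdown libraries. Of 7 tested fibroblast genes (THY1 and COL1A2 the most abundant) 1 rose, with 42.9 to 120 TPM in control and 111 to 123 TPM in knockdown libraries and LUM at 0 throughout. Without THY1 that list summed to 9.10 to 46.1 and 58.8 to 76.1 TPM. Of 6 myeloid genes tested (CD68 and ADGRE1 the most abundant), 6 endothelial (TIE1 and CDH5), 2 lymphocyte (KLRD1 and CD79A most abundant in the list), 2 plasmacytoid dendritic cell (TCF4 and IL3RA) and 2 red cell genes, none passed in edgeR. Lymphocyte markers summed to 1.02 to 1.55 TPM in control and 1.21 to 2.67 TPM in knockdown libraries, with CD3D and MS4A1 among the genes at 0. Plasmacytoid dendritic cell markers, of a cell known for making interferon, summed to 2.06 to 10.7 and 8.01 to 12.7 TPM, with LILRA4 and GZMB at 0, and red cell markers to 1.39 to 4.53 and 2.56 to 3.38 TPM. The part of other cells, or of mouse reads, in the rise of BST2, XAF1, ISG15, IFI44 and IFI44L was not tested.

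The genes whose pattern over the 6 libraries was most like that of BST2 or ISG15 were named by the smallest root-mean-square difference of log2(CPM + 1) values, each centred on its own mean, among 13790 genes with a mean of at least 1 CPM. For BST2 these were CDH23 (0.0988), SULF2 (0.167), FRMPD3 (0.175), SLC14A1 (0.201) and C5AR1 (0.206). SLC14A1 and C5AR1 were below 1 CPM in every control, where the added 1 flattens differences. Their log2 fold changes were 6.17 and 4.16, against 3.66 for BST2. CDH23, an atypical cadherin gene, went from 5.26, 7.20 and 4.36 CPM in the controls to 61.1, 53.2 and 63.0 CPM in the knockdown. For ISG15 they were PLEKHA4 (0.0593), S100A6 (0.0721), PILRB (0.102), ABCC1 (0.108) and NPTXR (0.111). S100A6, which encodes a calcium-binding protein, went from 65.2, 83.2 and 74.8 CPM to 210.4, 210.5 and 199 CPM. None of the 10 is on the interferon lists used here.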

How the data were processed

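Bulk RNA-seq libraries of 3 control and 3 GANAB knockdown samples were used; per the labels' protocols, TRIzol was used for extraction and each library began from 200 ng of RNA. The authors deposited estimated counts per gene, unnormalized whole numbers, and TPM values that sum to the same total in each library. The build GRCh38 and the tools Salmon, fastp and DESeq2 are named in the submitters' processing notes; no source names versions, the strand setting or a removal of mouse reads, so mouse reads that match human transcripts could be counted. Knockdown columns carry an abbreviation for knockout and were matched by group and number.

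Counts of 19430 genes that passed filterByExpr were compared by edgeR's quasi-likelihood test (edgeR 4.0.16 in R 4.3.3, TMM, 2-sided, no covariate, Benjamini-Hochberg over all tested genes, threshold 0.05). Standard errors and 95% intervals came from the F statistic. Alternatives used DESeq2 1.42.0 and limma 3.58.1, and leaving out mitochondrial genes was chosen after seeing the data. Library totals ran from 11737837 to 40039584 counts, so a count weighs most in control library 3. On counts simulated for these 19430 genes, the test found 7% of the 2-fold and 63% of the 4-fold changes, and it called 4 of 19230 genes simulated without a change. The simulation gave both groups the same spread, while the median coefficient of variation was 35.2% in control and 8.89% in knockdown libraries. These shares may therefore not hold for the data. Pairs of libraries of a group differed beyond sampling noise (chi-square per degree of freedom at least 6.07), so none was counted as repeat sequencing of the same library. This cannot exclude libraries made separately from the same sample.

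The genes described, the lists and the tests were chosen with earlier results of these data known. Named genes were GANAB, the 10 genes, the ISG15 list, up to 3 genes of smallest p in each other list, relatives and neighbours, the 5 genes nearest in pattern to BST2 and to ISG15, and the 2 most abundant genes of each marker list. Gene positions and overlaps are from GENCODE release 29 (GRCh38), promoters from RefSeq (GRCh38.p14). The labels do not say whether the replicate numbers pair the libraries, and the main fit used no pairing. A fit with the number as a block is in the closing section. Some genes that this rule or these lists would name are not reported here.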

Additional observations from a re-analysis of the deposited data

Results flagged for a closer look

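In the lists used here 4 genes had TPM values but no counts in the table, and every knockdown library was above every control library for them; these differences were not tested. IFNL2, a type III interferon gene, had a mean of 0.258 TPM in the knockdown libraries, and at most 0.0522 TPM in a control library. IFNL3, its near-identical neighbour, had a mean of 0.372 TPM in the knockdown and was listed at 0 in the 3 controls. The monocyte gene CD14 had a mean of 0.0892 TPM and the macrophage gene SIGLEC1, itself induced by interferon, 0.0352 TPM. All 4 lie at levels where few reads decide a value.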

How the results depend on the processing

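BST2 and XAF1 passed under all 18 alternatives and ISG15 under 17, all but log2(TPM + 1) without a filter (limma adjusted p = 0.0733); IFI44 and IFI44L passed under 12 each. The count of 5 changed genes among the 10 became 2 (BST2 and XAF1) on log2(TPM + 1) without a filter and ranged from 3 to 7 when 1 library was left out: 3 (BST2, ISG15 and XAF1) without control library 1 or any knockdown library, and 7 without control library 2, which added IFI6 and IFI27. Their median log2 fold change of 1.00 ranged from 0.66 (without control library 3) to 1.24 (without control library 2). The 1614 genes called in all became 3655 with DESeq2, 3716 with voom quality weights, 828 on log2(TPM + 1), 526 on log2(TPM + 0.1) and 46 on log2(TPM + 1) without a filter. They ranged from 62 without knockdown library 1 to 5604 without control library 2, with 115 and 88 without knockdown libraries 2 and 3; the cause was not tested. Of the calls 55.3% were higher, but 90.7%, 89.4% and 93.5% on those 3 TPM scales, where the median log2 fold change of all genes was 0.23, 0.28 and 0.09 against 0.03.

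With the replicate number as a block, 566 genes were called and the same 5 of the 10 genes passed, with IFI6 at 0.20. Libraries of the same number hardly deviated together (r = 0.00223, 0.0171 and 0.0218 over genes), so no pairing was seen. With so few libraries this cannot exclude that a number marks a shared animal or day. The block ended the calls of BISPR, IRF7, IRF3 and TLR3 (edgeR adjusted p = 0.0961, 0.0878, 0.0771 and 0.0877).

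Some log2 fold changes changed sign, and the cause was not tested. IFI6 (-0.09) was 0.54 with voom quality weights, 0.16 with voom and 0.40 on each TPM scale, and -0.50 to 0.74 with 1 library left out. HERC5 (-0.21) was 0.10 on log2(TPM + 1) with and without a filter and 0.12 on log2(TPM + 0.1). TRIM25 (-0.06) was 0.23 on log2(TPM + 1) with and without a filter and 0.24 on log2(TPM + 0.1). ARIH1 (0.10) was -0.014 with voom quality weights. With 1 library left out TRIM25 ran from -0.24 to 0.027, ARIH1 from -0.032 to 0.19, UBE2L6 from -0.017 to 0.49 and IFI27L2 from -0.31 to 0.83. Control library 3, with the fewest counts, limits the genes of low count.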

Other observations

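Among the 10 genes themselves, the pairs most alike over the 6 libraries by the same measure were ISG15 and IFI44 (root-mean-square difference 0.256 on the log2 scale), IFI6 and IFI27 (0.294) and USP18 and HERC5 (0.305). BST2 was nearest to XAF1 (0.460). The pair farthest apart was IFI6 and XAF1 (1.71). In CPM control library 2 was the highest control in 8 of the 10 genes, and control library 3 was the lowest in 8. RSAD2 was highest in control library 1 and XAF1 in control library 3. On the TPM scale without mitochondrial genes control library 3 was no longer the lowest for USP18, IFI44, IFI44L and RSAD2. The share of all tested genes with such an order was not counted.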
